A study of Drosophila melanogaster with 2 samples.

Results

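bantam is the miRNA hairpin listed under that name in the deposited count tables of the adult and larval central nervous system (CNS) of Drosophila melanogaster and in the authors' comparison of the stages. It was chosen by name, and it is 1 of 174 hairpins in all. Of these, 169 were listed in the adult library and 139 in the larval library. The adult library was made from brains with their antennal lobes, taken 3 to 5 days after eclosion. The larval library was made from ventral ganglia with the optic lobes, without the eye discs, of wandering larvae in the third instar. Both groups carried the genotype w[1118] Iso31, with no transgene or treatment named, and each library pooled tissue of about 100 animals, males and females in similar numbers. Stage and dissected tissue change together, so the part of each cannot be told apart. There was 1 library per stage, so no difference below has a replicate check. All intervals are 95% intervals that cover counting error only. The libraries carry no molecular identifiers, so amplified copies of a molecule count as separate reads and the intervals may be too narrow. No p-value was computed.

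A miRNA is cut from a hairpin whose arms pair with each other. Usually the arm called the guide is loaded into an Argonaute protein and directs the silencing of target messages, and its partner, the star arm, is mostly degraded. bantam is known as a promoter of tissue growth and a brake on cell death in the fly. It represses the death gene hid and is induced by Yorkie, the effector of the Hippo growth pathway. In the nervous system it has been tied to the growth of neural progenitors and glia, to dendrite size and to the circadian clock.

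The hairpin, mir-ban in the BDGP6 annotation (Ensembl), lies on chromosome 3L at 642208 to 642288 on the plus strand and is 81 bases long. Its 5' arm spans 642222 to 642244 and its 3' arm 642259 to 642281. Each arm is 23 bases long, and 14 bases lie between them. The hairpin lies within an exon of the long noncoding RNA lncRNA:CR43334 (628435 to 643900, plus strand), which RefSeq also lists as pri-bantam, in all 3 of its annotated transcripts. The nearest other pre-miRNA annotated on 3L, mir-282, was 2608734 bases away, so bantam has no neighbouring miRNA in a cluster. Every mature read of bantam fitted its hairpin alone, 86172 of 86172 in the adult and 30750 of 30750 in the larval library.

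Markers of the tissue and of its neighbours were read in both libraries. miR-124, a miRNA of neurons, had 1603 RPM in the adult and 2564 RPM in the larval library by all reads of its hairpin. Its guide arm alone went the other way, with 999 RPM in the adult and 753 RPM in the larval library. Its star arm had 222 RPM in the adult and 1595 RPM in the larval library. The muscle markers miR-1 and miR-133 summed to 13143 RPM in the adult and 565 RPM in the larval library. Nearly all of this was miR-133, with 13002 RPM in the adult and 518 RPM in the larval library, while miR-1 had 141 RPM in the adult and 47.4 RPM in the larval library. The photoreceptor marker miR-210 had 17586 RPM in the adult and 99.7 RPM in the larval library. Of 6 fat body, 8 testis and 5 ovary markers, the sums were 5.40, 14.4 and 33.6 RPM in the adult and 0, 3.65 and 59.6 RPM in the larval library. In the adult library 2 fat body and 3 testis markers were at 0, and in the larval library 6 and 5, with no ovary marker at 0 in either. The muscle and photoreceptor markers moved with the stage, and their part in the level of bantam was not tested.

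bantam was among the most abundant miRNAs of both libraries. It had 86482 reads in the adult library, against 30921 reads in the larval library. The adult library held 1665159 hairpin reads and the larval library 822500. That made 51936 RPM (reads per 1000000 hairpin reads) in the adult library and 37594 RPM in the larval library. bantam thus held 5.19% of adult reads (5.16 to 5.23) and 3.76% of larval reads (3.72 to 3.80). It ranked 6th of the 169 hairpins of the adult library and 5th of the 139 of the larval library. The hairpins above it took 56.2% of all adult reads and 64.8% of all larval reads. bantam had 665 times the reads of the median listed hairpin in the adult library and 297 times in the larval library. Of the reads that were left below those hairpins, bantam held 11.8% in the adult CNS and 10.7% in the larval CNS.

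Its neighbours in this order were apart from it by more than counting error, with non-overlapping intervals on each side. In the adult library miR-957 (11.1%) and miR-14 (7.99%), a miRNA of fat metabolism and cell survival, stood just above bantam. miR-317 (4.93%, interval 4.89 to 4.96) and miR-999 (3.92%) stood just below it. In the larval library miR-315 (11.9%) and miR-276b (10.7%) were next above. miR-317 (3.55%, interval 3.51 to 3.59) and miR-92b (3.41%) were next below. By all hairpin reads miR-317 was thus next under bantam at both stages, and bantam exceeded it 1.05-fold in the adult and 1.06-fold in the larval library. Most miR-317 reads lay outside its mature arms, however. By mature reads alone bantam kept its 6th and 5th place in the adult and larval libraries, but it exceeded miR-317 2.41-fold in the adult and 2.28-fold in the larval library. The next hairpin was then miR-999 in the adult library, which bantam exceeded 1.32-fold, and miR-92b in the larval library, which it exceeded 1.10-fold.

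The main comparison of the design sets the adult against the larval library. bantam was 1.38-fold higher in the adult library (interval 1.36 to 1.40), a log2 ratio of 0.47. A hairpin was called higher in a library where its ratio was at least 2 and the interval left out 1, and bantam met neither call. A floor of 20 reads in the libraries together, and of 10 RPM in at least 1 of them, left 114 hairpins to compare, of which 40.4% were called higher in the adult library and 24.6% higher in the larval library. bantam lay in the middle of these ratios, with 56 hairpins below it and 57 above it. The median log2 ratio over all 114 was also 0.47, and their quartiles were -0.82 and 2.01. Leaving the 10 most abundant hairpins of each library (14 in all) out of the total gave bantam a ratio of 0.963 (0.951 to 0.976), on the other side of 1. That reduced total shifted all log2 ratios by -0.52, and DESeq2 size factors shifted them by -0.15, the median hairpin included. The direction of the small difference in bantam thus followed the choice of the total. Its place beside the median hairpin cannot change with the total, because a total shifts all log2 ratios alike. A bulk library cannot tell fewer cells that make bantam from less bantam per cell.

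**Figure D1:**
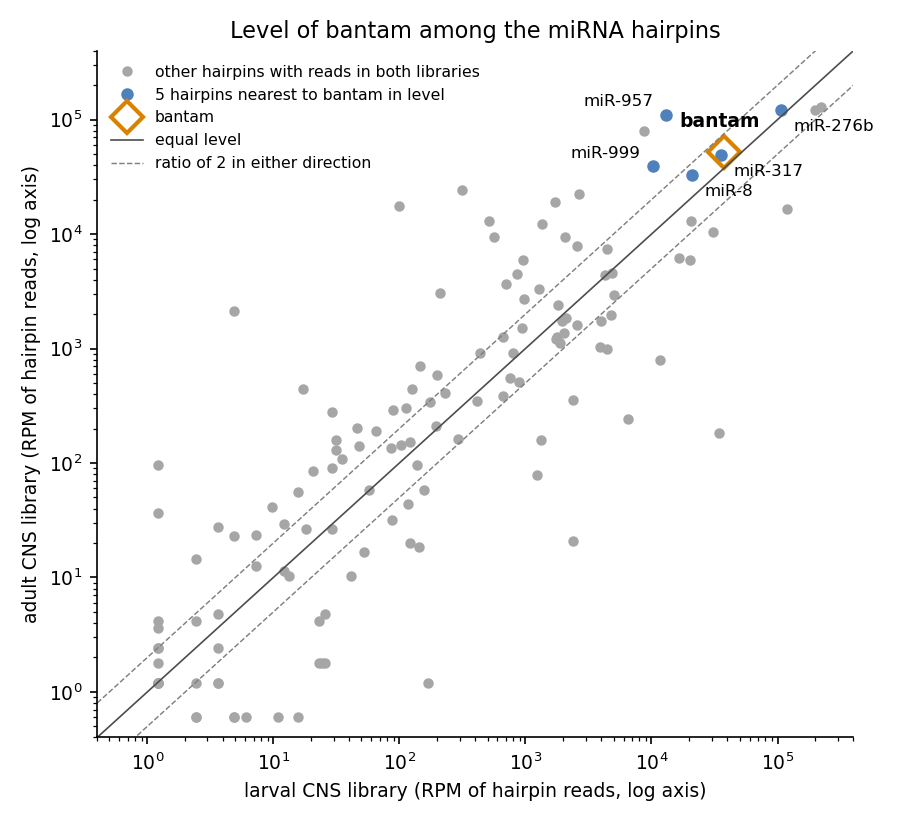
Level of each hairpin with reads in both libraries, with the adult library on the vertical axis and the larval library on the horizontal axis, both in RPM of hairpin reads on log axes. bantam (open diamond) lies at 51936 RPM in the adult and 37594 RPM in the larval library, between the dashed lines of a ratio of 2, with miR-317 inside the diamond by all reads (by mature reads miR-8 was nearer).

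In the authors' deposited table bantam has 51936 RPM in the adult and 37594 RPM in the larval library, and a signed fold change of -1.38. That fold change is larval over adult, so its minus sign means a higher adult value. The authors' deposited table lists the p-value of Kal's Z-test for bantam as 0. It lists 94 of the 174 hairpins, 54.0%, with a Bonferroni p-value under 0.05. By the size of the test statistic in the authors' deposited table, bantam is 26th of the 174. This test compares the reads of 2 libraries and not the stages.

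By all hairpin reads the pair of levels most like that of bantam was that of miR-317, and by mature reads it was that of miR-8. Likeness was measured as the distance between log2 RPM values over the 2 libraries, which was 0.11 for miR-317, with 49250 RPM in the adult and 35463 RPM in the larval library. miR-8, the fly relative of the miR-200 family, followed at a distance of 1.06, with 32762 and 21139 RPM in the adult and larval libraries. miR-957, miR-999 and miR-276b were at 1.89, 1.90 and 1.95. Counted by mature reads, a choice made after seeing the data, miR-8 was the nearest at 1.06 and miR-317 followed at 1.74. Among the 36 other hairpins with at least 1000 reads in each library, the ratio of all hairpin reads nearest to that of bantam was again that of miR-317, at 1.39 (1.37 to 1.41). miR-1010 had 1.34 (1.26 to 1.42), miR-8 had 1.55 (1.52 to 1.58), miR-1000 had 1.68 and miR-276b had 1.13. The intervals of miR-317 and miR-1010 overlapped that of bantam, and those of the other three did not. By mature reads miR-317 had a ratio of 1.33 (1.31 to 1.36), apart from the 1.41 (1.39 to 1.43) of bantam, and miR-1010 was the nearest, at 1.33 (1.25 to 1.43).

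Nearly all bantam reads came from the 3' arm, the guide. It had 85502 reads in the adult library, against 29690 in the larval library, which made 51348 RPM in the adult and 36097 RPM in the larval library. The 5' arm, the star, had 670 reads in the adult library, against 1060 in the larval library, although the adult library was the deeper one. These made 402 RPM in the adult and 1289 RPM in the larval library. As single arms, the guide ranked 6th of 249 arms with reads in the adult and 5th of 218 in the larval library, and the star ranked 63rd in the adult CNS and 43rd in the larval CNS. Even the star had more reads than most whole hairpins, exceeding 111 of the 169 hairpins listed in the adult and 97 of the 139 listed in the larval library.

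Counted against all hairpin reads, the arms of bantam differed in opposite directions between the libraries. The guide was 1.42-fold (1.40 to 1.44) higher in the adult library and met no call. Of the 110 guide arms past the floor, 40.9% were called higher in the adult library and 26.4% higher in the larval library. The star had an adult over larval ratio of 0.312 (0.283 to 0.344) and was called higher in the larval library, by 3.20-fold (2.90 to 3.53). Of the 56 star arms past the same floor, 39.3% were called higher in the larval library and 25% higher in the adult library. The ratio of the star lay between 0.218, with the reduced total, and 0.318, over mature reads, in the scalings tried. With the reduced total the guide had a ratio of 0.992 (0.979 to 1.00), so a higher guide in the adult library was not seen under it. In 11 of 56 hairpins with both arms past the floor, 19.6%, bantam included, the interval of the guide lay above 1 and that of the star below 1. The reverse was seen in 0 of 56. The count of 11 became 9 with TMM factors and 8 with DESeq2 size factors, with bantam included in each. With the reduced total it became 6, and bantam was not among them.

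**Figure D2:**
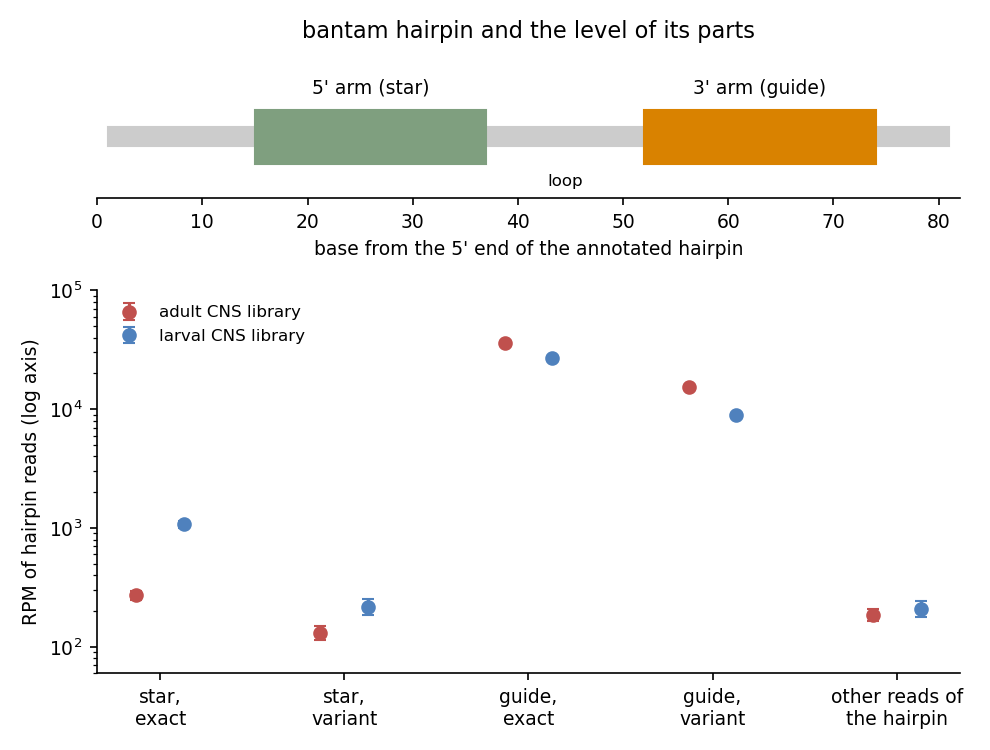
Top, the annotated bantam hairpin with its star arm (bases 15 to 37) and guide arm (bases 52 to 74). Bottom, RPM of hairpin reads on a log axis for each kind of bantam read, with 95% exact binomial intervals. Against all hairpin reads the guide points are higher in the adult library (not so for the whole guide arm with the reduced total), the star points are higher in the larval library, and the intervals of other reads overlap.

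Within a library the share of the arms needs no scaling. The star held 0.778% of mature bantam reads in the adult library (0.720 to 0.838), against 3.45% in the larval library (3.25 to 3.66). There were 128 guide reads per star read in the adult CNS and 28.0 in the larval CNS. The odds of a star read were thus lower in the adult library, with an odds ratio of 0.219 (0.199 to 0.242). Among reads equal to the annotated arms the odds ratio was 0.191 (0.170 to 0.214), the same side of 1. The rule used for arm shares asked for a move of at least 10 percentage points and non-overlapping intervals, and 22.4% of 76 hairpins met it. The share of bantam moved by less and was not called different. From a larval share of 3.45% a fall of 10 points was not possible, so this rule could not call a lower adult share of bantam.

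A lower star share in the adult library was common among the hairpins. Taking the arm with fewer mature reads over both libraries as the star, 76 hairpins had enough reads (20 or more mature reads at each stage). The adult library, with 1597622 mature reads against 803027 in the larval library, weighed more in this choice. An arm that led in the larval library could thus be named the star, which adds to the lower adult shares. The interval of the odds ratio lay below 1 in 39.5% of them and above 1 in 14.5%. Of the 37 hairpins with 1000 or more mature reads at each stage, 43.2% had a lower and 13.5% a higher star share in the adult library. The median odds ratio of these 37 was 0.466, against 0.219 for bantam, and 11 of them had a smaller odds ratio than bantam and 25 a larger one. miR-14, with a star share of 0.238% in the adult CNS and 2.62% in the larval CNS, and miR-1010, with 1.09% in the adult CNS and 10.3% in the larval CNS, were among those below it. miR-317 had a star share of 0.162% in the adult CNS and 0.119% in the larval CNS, and its odds ratio of 1.37 (0.775 to 2.55) did not leave out 1. The star share of bantam itself was above the median of these 37, which was 0.548% in the adult CNS and 1.58% in the larval CNS, and 16 hairpins exceeded it in the adult CNS and 13 in the larval CNS.

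**Figure D3:**
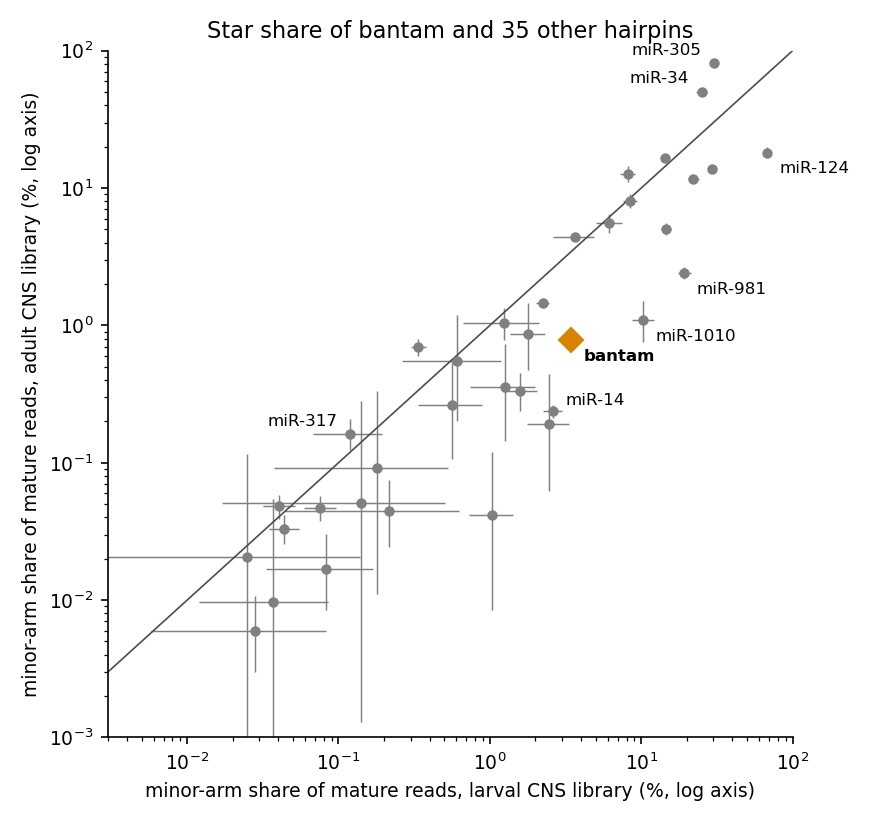
Share of mature reads on the minor arm in the adult library (vertical axis) and the larval library (horizontal axis), in percent on log axes, for bantam and 35 other hairpins with 1000 or more mature reads at each stage and minor-arm reads at both, with 95% exact binomial intervals. bantam, at 0.778% in the adult CNS and 3.45% in the larval CNS, lies below the line of equal shares, as do miR-14, miR-1010, miR-981 and miR-124, while miR-305 and miR-34 lie above it.

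Reads of the guide were less often equal to the annotated 3' arm in the adult library. Exact guide reads numbered 59838 of 85502 in the adult library, 70.0% (69.7 to 70.3), against 22298 of 29690 in the larval library, 75.1% (74.6 to 75.6). The rest were variants, mature reads that differ from the annotated form. The tables do not say at which end or base they differ. Exact guide reads were 35935 RPM in the adult and 27110 RPM in the larval library, a ratio of 1.33 (1.31 to 1.35). Variant guide reads were 15412 RPM in the adult and 8987 RPM in the larval library, a ratio of 1.71 (1.67 to 1.76). Of the net difference of 14342 RPM between the libraries (adult minus larval), exact guide reads made 61.5%, variant guide reads 44.8%, star reads -6.18% and other reads -0.152%. These ratios and this split are against all hairpin reads. With the reduced total the ratio of all bantam reads was 0.963, so the net difference had the other sign.

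The star arm showed the same order with a wider gap. Exact reads were 452 of 670 star reads in the adult library, 67.5% (63.8 to 71.0), against 882 of 1060 in the larval library, 83.2% (80.8 to 85.4). The odds of an exact read, adult over larval, were 0.419 (0.331 to 0.529) on the star arm and 0.773 (0.750 to 0.797) on the guide arm. Exact star reads were 271 RPM in the adult and 1072 RPM in the larval library, a ratio of 0.253 (0.226 to 0.284). Variant star reads were 131 RPM in the adult and 216 RPM in the larval library, a ratio of 0.605 (0.494 to 0.742), so the exact star reads differed more than the variant ones.

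The exact share of the bantam guide was above that of the median hairpin at each stage. Over 37 hairpins with 1000 or more mature reads at each stage the median exact share of the guide arm was 60.2% in the adult CNS and 70.8% in the larval CNS. A lower exact share in the adult library, with non-overlapping intervals, was found in 59.5% of these hairpins and a higher one in 18.9%. bantam's difference of -5.12 percentage points (adult minus larval) was larger than the median difference of -2.54. miR-8 had 87.9% in the adult CNS and 91.0% in the larval CNS, while miR-317 went the other way, with 68.9% in the adult CNS and 58.7% in the larval CNS.

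Reads of the hairpin outside both mature arms were rare for bantam. There were 310 in the adult library, 0.358% of its reads (0.320 to 0.401), against 171 in the larval library, 0.553% (0.473 to 0.642). Their level was 186 RPM in the adult and 208 RPM in the larval library, a ratio of 0.895 whose interval of 0.741 to 1.09 holds 1. The share was lower in the adult library, with an odds ratio to mature reads of 0.647 (0.535 to 0.785). Of 37 hairpins with at least 1000 reads in each library, 5.41% had a lower share of other reads in the adult library and 40.5% a higher one. bantam and miR-252 were the only hairpins of the 37 in the first group. miR-317, close to bantam by all reads and not by mature reads, had 56.4% other reads in the adult CNS and 53.8% in the larval CNS.

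miR-252 also had the make-up closest to that of bantam. Likeness was the mean absolute difference over the 8 shares of exact guide, variant guide, star and other reads in the 2 libraries, and it was 1.69 percentage points for miR-252. In the adult library exact guide reads were 69.2% of all reads for bantam and 73.3% for miR-252. In the larval library they were 72.1% for bantam and 72.4% for miR-252. miR-993 and miR-263a came next, at 3.94 and 4.39 points, the first with more star reads and the other with more other reads than bantam.

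**Figure D4:**
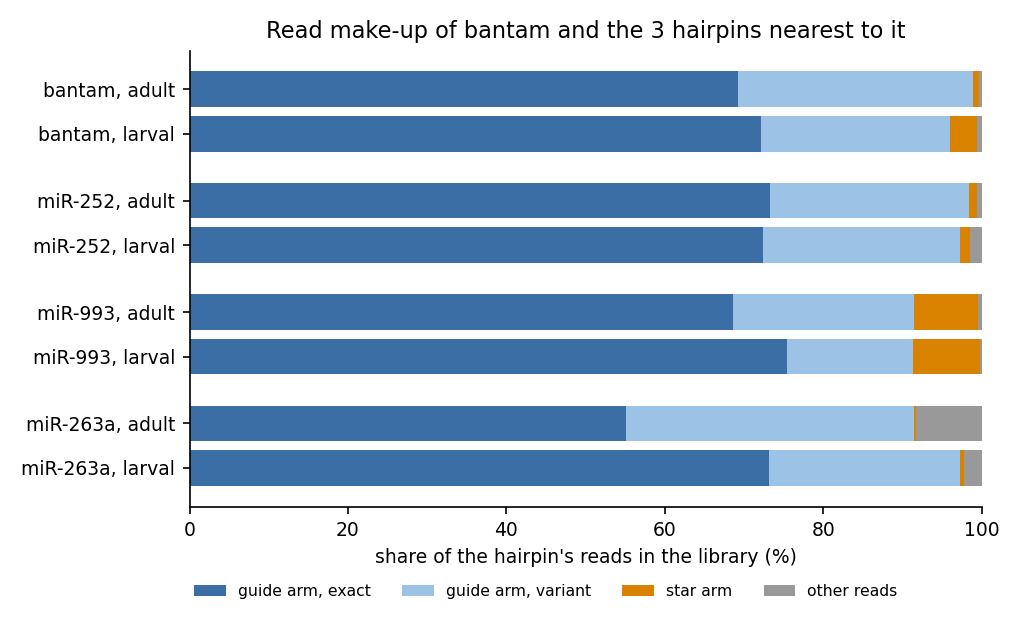
Share of each hairpin's reads, in percent, that were exact guide, variant guide, star and other reads, with the adult bar above the larval bar for bantam, miR-252, miR-993 and miR-263a. The star segment of bantam is 0.775% of all its reads in the adult CNS and 3.43% in the larval CNS.

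bantam was set beside the other miRNAs of its known processes, listed by what has been reported of them. In a list of 17 hairpins tied to cell death through hid, reaper, grim, sickle or caspases, all passed the floor. Of these, 3 were called higher in the adult library, 4 were called higher in the larval library, and 10, bantam among them, met neither call. The 17 hairpins stand for 12 miRNAs, and the copies of miR-2a, miR-2b, miR-13b and miR-6 have nearly the same guide reads. The counts and the median of this list thus hold some miRNAs more than once. Over all 114 hairpins compared 40.4% were called adult and 24.6% larval. The median log2 ratio was -0.19, against 0.47 over all hairpins compared. With the reduced total the calls were 2 adult and 7 larval, beside 40 adult and 41 larval over all 114. miR-14, which restrains caspase activity, was 9.14-fold higher in the adult library, with 79931 RPM there and 8743 RPM in the larval library. miR-11, which targets the same group of death genes, had 13033 RPM in the adult and 20577 RPM in the larval library, a ratio of 0.633. miR-263a, which also acts on hid, had 1730 RPM in the adult and 3950 RPM in the larval library and was called higher in the larval one. The 3 copies of miR-6, known from the embryo, made up the other 3 larval calls but share reads. Of these miR-6-1 had 3 adult and 21 larval reads, a ratio of 0.0706 (0.0135 to 0.236). The low miR-263b had 20 adult and 0 larval reads, at least 3.29-fold higher in the adult library when 3 reads are put in for the 0 and the adult reads are taken as exact. With the counting error of the adult reads included, the interval of this ratio began at 2.44. Counting 1 copy per miRNA, bantam supplied 33.4% of the summed RPM of this list in the adult CNS and 46.7% in the larval CNS, being second to miR-14 in the adult and the largest in the larval library.

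In the list of tissue growth all 11 hairpins passed the floor, with 3 called higher in the adult library, 5 called higher in the larval library and 3 with neither call. These counts stand beside 40.4% adult and 24.6% larval calls over all hairpins compared. The last group was bantam, miR-8 and miR-7. The median log2 ratio was 0.21, against 0.47 over all hairpins compared. With the reduced total, which shifts every log2 ratio alike, it was -0.31, against -0.05 over all. let-7, known for its part in the larval to adult transition, was 16.9-fold higher in the adult library. miR-278, a miRNA of energy balance, was 5.22-fold higher there. miR-9c, at 798 RPM in the adult and 11769 RPM in the larval library, had a ratio of 0.0678, and miR-9a, miR-9b, miR-306 and miR-79 were also called higher in the larval library. bantam was 28.4% of the summed RPM of this list in the adult CNS and 41.2% in the larval CNS.

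In the list of neural progenitors and glia all 9 hairpins passed the floor, with 2 called higher in the adult library, 3 higher in the larval library and 4, bantam among them, with neither call. The shares over all hairpins compared were 40.4% adult and 24.6% larval. Its median log2 ratio of 0.21, against 0.47 over all, also became -0.31 with the reduced total, against -0.05 over all. That total gave 2 adult and 4 larval calls in the list, beside 40 adult and 41 larval calls over all 114 hairpins compared. miR-92b, a miRNA of neuroblasts, had 183 RPM in the adult and 34054 RPM in the larval library, where it stood close to bantam. miR-92a, of the same family, had 21.0 and 2382 RPM in the adult and larval libraries. let-7 and miR-125, made from a shared transcript, were the 2 adult calls. bantam was the most abundant member at both stages, with 51.4% of the summed RPM in the adult CNS and 36.2% in the larval CNS.

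In the circadian list all 9 hairpins passed the floor, with 3 called higher in the adult library, 2 higher in the larval library and 4 with neither call, beside 40.4% adult and 24.6% larval calls over all hairpins. The median log2 ratio was -0.58, against 0.47 over all. With the reduced total there were 3 adult and 5 larval calls, beside 40 adult and 41 larval calls over all 114 hairpins compared. miR-276a had 121157 RPM in the adult and 200080 RPM in the larval library and was the only member above bantam at either stage. miR-210, known from photoreceptors, was 176-fold higher in the adult library, and miR-279, which affects the output of the clock, had a ratio of 0.667. The 4 lists share members, and bantam stands in each. In all 4, bantam was inside the range of a ratio of 2, while other members lay far beyond it on either side.

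**Figure D5:**
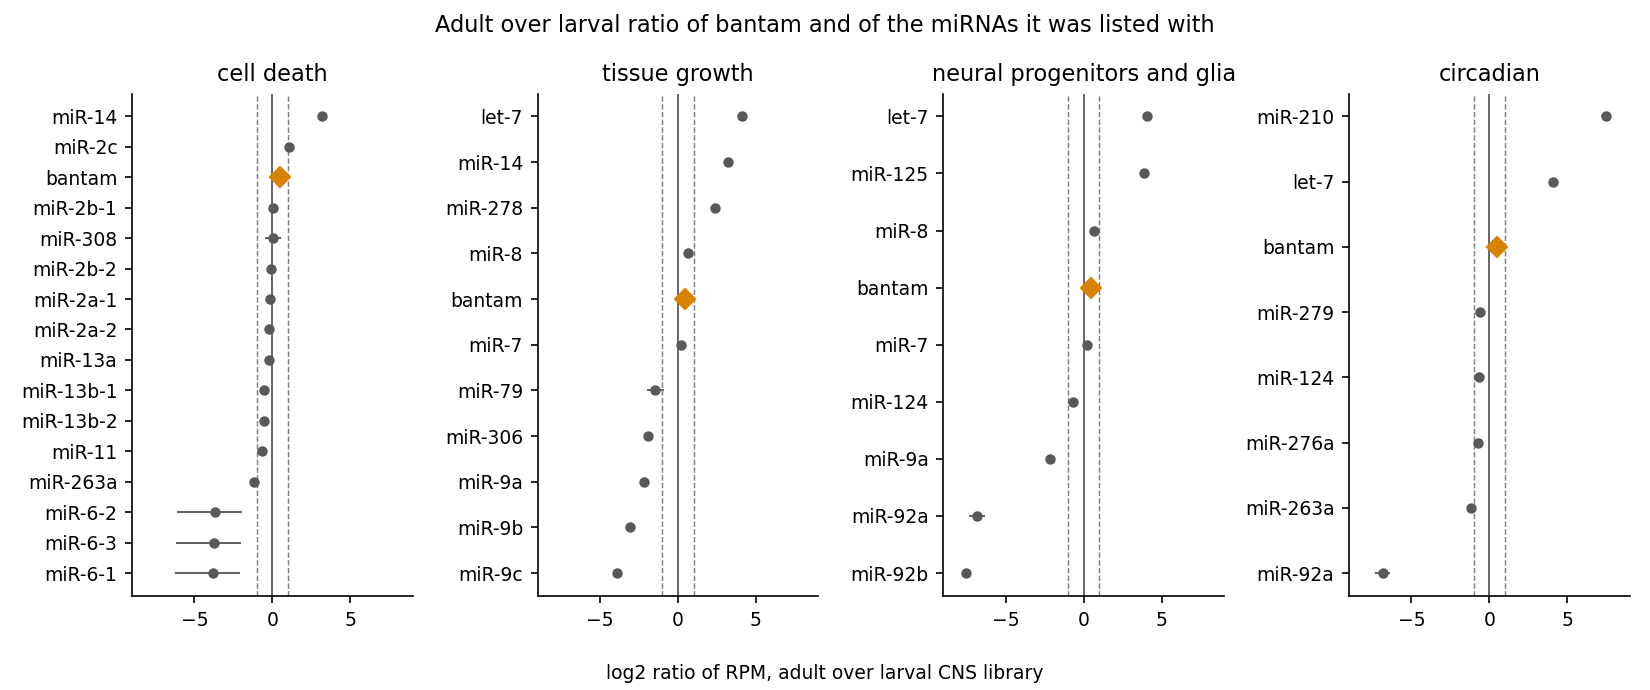
Log2 ratio of RPM, adult over larval library, with the exact 95% interval, for the members of the 4 lists, with bantam as a diamond and dashed lines at a ratio of 2 in either direction. bantam is at 0.47 in each panel, and miR-263b, with 0 larval reads, is not drawn.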

How the data were processed

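Small RNA was sequenced from 1 adult and 1 larval CNS library prepared from 1 µg of total RNA with the TruSeq small RNA kit of Illumina, per the labels' protocols. The authors deposited read counts per annotated hairpin, split into 5' arm, 3' arm and other reads, with columns for exact and for unique reads, from trimmed reads per the file headers. The authors' comparison was deposited with RPM for each library, a signed fold change and a test statistic (both kept as scores), and a raw and a Bonferroni-corrected p-value from a Z-test after Kal. Per the submitters' processing notes, CASAVA 1.8 and the dm3 build were used. Not given in the sources used here are the aligner, the counter and the release of the miRNA annotation.

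From the counts, RPM was computed over all hairpin reads, 1 read being 0.601 RPM in the adult and 1.22 RPM in the larval library. Ratios have exact conditional binomial (Clopper-Pearson) intervals, shares exact binomial intervals and odds ratios exact conditional intervals (scipy 1.17.1). Log2 ratios of hairpins add 0.5 reads to each count. With 1 library per stage no test between the stages was run. The floor was 20 reads over both libraries and 10 RPM in either. The ratio, its interval and the call rule were tested on Poisson counts simulated with known ratios. Such counts hold counting error only, so spread between animals or preparations and amplified copies were not covered. Scaling alternatives were TMM (edgeR 4.0.16), DESeq2 1.42.0 size factors and a total without the 10 most abundant hairpins. The hairpins named were bantam, its nearest neighbours in rank, level, ratio and read make-up, and examples from the 4 lists. Others, such as miR-305, miR-34, miR-981 and hairpins of the star share comparison, were chosen after their values were seen. The member and the lists were chosen with earlier results of these data known. Positions are in BDGP6 and were not combined with dm3. The lists of candidate hairpins were not used. No miRNA sequence was at hand, so hairpins sharing the seed of bantam were not searched.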

Additional observations from a re-analysis of the deposited data

How the results depend on the processing

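No paired analysis was possible because each stage has 1 library, and no replicate could be left out. The adult over larval ratio of bantam, 1.38 with all hairpin reads, was 1.33 with TMM factors, 1.25 with DESeq2 size factors, 1.40 with the total without bantam, 1.41 with mature reads only, 1.32 with exact mature reads only and 1.41 with reads that fit 1 hairpin only. It was 0.963 with the reduced total, which leaves out the 10 most abundant hairpins of each library, 1.45 for the guide alone over mature reads and 0.318 for the star alone over mature reads, so it crossed 1 with that total and for the star. None of these but the star met the call. The guide ratio of 1.42 was 1.36 with TMM factors, 1.28 with DESeq2 size factors, 0.992 with the reduced total, 1.45 over mature reads and 1.36 with exact reads. The star ratio of 0.312 was 0.282 with DESeq2 size factors, 0.218 with the reduced total and 0.260 with exact reads, and the star odds ratio of 0.219 was 0.191 with exact reads. The alternatives for the star and guide arms were chosen after seeing the data. Of the 56 star arms past the floor, 14 were called higher in the adult library, and 9 with the reduced total. Those called higher in the larval library numbered 22, and 27 with the reduced total. With that total 40 adult and 41 larval calls were made among the hairpins, making 49.4% of calls adult in place of 62.2%. The guide share in the larval library was 96.6%, and 96.2% with exact reads. The exact share of mature reads, 70.0% in the adult CNS and 75.4% in the larval CNS, was 67.5% in the adult CNS and 83.2% in the larval CNS on the star arm alone. With exact mature reads bantam ranked 7th in the adult and 4th in the larval library. In all, 35 alternative values stayed within the 95% interval of the reported value, at its rank or, for counts, within 1.5 times it, and 24 did not. The margin for counts is wide, and the rise in larval calls from 28 to 41 with the reduced total fell within it. Depth was not the limit for bantam's level or arms. With 1 library per stage the spread between animals and preparations is unknown.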
